A study of Phalaenopsis aphrodite subsp. formosana with 2 samples.

Results

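The loci described here were those with at least 3-fold more RNA in a yellow than in a green leaf sector of a variegated moth orchid, among loci on long contigs with a sizeable signal. They were chosen by contig length, which had to be at least 1000 bases, and by both FPKM values, of which the larger had to be at least 10 and the ratio, taken as (yellow FPKM + 1) / (green FPKM + 1), at least 3-fold. FPKM is the number of fragments per kilobase of transcript and per 1000000 mapped fragments. This rule gave 183 loci on 172 contigs, of 16843 loci in all. Of the 6251 loci that met the limits on length and FPKM, the 183 were 2.93%. Both FPKM values entered the rule, so the difference between the sectors is how these loci were chosen, and all values of it are given as a description with no test.

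The material was leaf tissue of Phalaenopsis aphrodite subsp. formosana carrying a variegation mutation, with 1 library from a yellow sector and 1 library from a green sector. The plants were kept in a greenhouse, and both sectors came from the mutant, so that no leaf of an unaffected plant was part of the comparison. How many plants or leaves went into a library is not in the labels. With 1 library per sector there was no spread between replicates, and it cannot be said whether any difference exceeds the variation between leaves.

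Leaf variegation in plants arises where sectors of a leaf differ in their plastids or in the pigments held in them. Chlorophyll gives green tissue its colour, and carotenoids, which are yellow to orange, become visible where chlorophyll is low. Plastid proteins are encoded partly in the plastid and largely in the nucleus, and signals from the plastid are known to alter the activity of nuclear genes. The table pairs 0 of its identifiers with a gene name, so none of the 183 loci can be assigned to photosynthesis, pigment metabolism or any other function, and the leaf tissue could not be checked against marker genes. In bulk tissue of this kind, fewer cells of a type and less RNA per cell cannot be told apart. No sequence of a contig was used here.

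The raised loci were of moderate abundance in the yellow sector and mostly low in the green sector. Their yellow FPKM ran from 10.2 to 1676, with a median of 34.0 and quartiles of 16.4 and 90.4. Their green FPKM ran from 0.296 to 228, with a median of 5.98 and quartiles of 3.17 and 16.6. The ranges of the sectors overlapped across loci, since the most abundant loci had more green FPKM than the low ones had yellow FPKM. Over the 183 loci, FPKM summed to 18397 in yellow and 3503 in green, a ratio of 5.25. The median log2 ratio on the FPKM + 1 scale was 2.05, against -0.01 over all 6251 loci. The median of the plain ratio of yellow to green FPKM was 4.91.

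A description as well expressed fits these loci in the yellow sector to different degrees. In yellow, 124 of the 183 loci (67.8%) had at least 20 FPKM, 42 (23%) had at least 100 FPKM and 3 had at least 1000 FPKM. The other 59 loci (32.2%) lay between 10 and 20 FPKM in yellow, close to the lower limit of the rule. In green, 119 loci (65%) were below 10 FPKM, 80 (43.7%) below 5 FPKM and 6 (3.28%) below 1 FPKM. None of the 183 was listed at 0 in green. At the other end, 16 loci had at least 50 FPKM in green and 8 had at least 100 FPKM, so that part of the raised loci were abundant in both sectors.

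**Figure D1:**
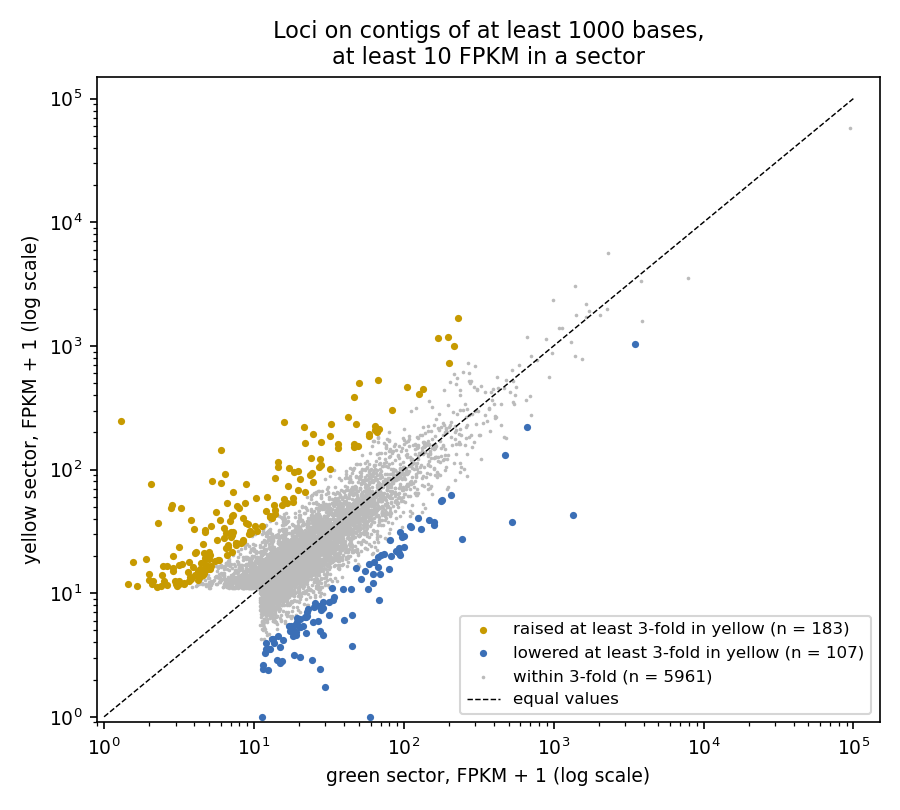
Yellow against green FPKM + 1, on log axes, for each locus within the limits on contig length (1000 bases) and larger FPKM (10); each point is 1 locus. The 183 raised loci lie above the line of equal values, from 0.296 to 228 FPKM in green, the 107 lowered loci lie below it, and the 5961 loci within 3-fold lie between them.

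Ranked by abundance among the 6251 loci, the raised loci had a median rank of 1540 in yellow and 6050 in green, where rank 1 is the most abundant. Of the 183, 49 were among the 500 most abundant in yellow and 9 among the 500 most abundant in green. The low green ranks follow from the rule, because a locus below 10 FPKM in green could enter only through its yellow value. Of the 43 loci below 3 FPKM in green that met the limits, 42 were raised. Where green FPKM was at least 10 and below 30, 36 of 3704 loci (0.972%) were raised, and where it was at least 100, 8 of 338 (2.37%) were.

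Most of the raised loci lay within 8-fold. The ratio on the FPKM + 1 scale was at least 3-fold and below 4-fold for 84 loci (45.9%), at least 4-fold and below 8-fold for 75 (41%), at least 8-fold and below 16-fold for 18 (9.84%) and at least 16-fold for 6 (3.28%). The median yellow FPKM of these classes was 25.6, 31.5, 70.1 and 63.01, and their median green FPKM was 7.47, 5.88, 5.26 and 1.54. The classes with the larger ratios thus had both a lower green median and a higher yellow median than the class nearest the threshold. This ordering is partly built in, since both values enter the ratio.

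The highest ratios belonged to a contig of 2213 bases that carried 2 of the raised loci. XLOC_009049 had 245 FPKM in yellow and 0.296 FPKM in green, a log2 ratio of 7.57. It ranked 103 in yellow and last, at 6251, in green. XLOC_009050 on the same contig had 75.6 FPKM in yellow and 1.06 FPKM in green, a log2 ratio of 5.22. It ranked 542 in yellow and 6244 in green, so that both loci were near the bottom in green and well up the ranks in yellow.

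The next 8 loci by ratio were 14.3-fold to 24.1-fold higher in yellow on the FPKM + 1 scale. The first of them lay on a 1007-base contig, with 143 FPKM in yellow and 4.99 FPKM in green. On a 2201-base contig a locus reached 48.2 FPKM in yellow and 1.79 FPKM in green. One on a 1784-base contig reached 35.7 FPKM in yellow and 1.29 FPKM in green. For the loci just named, green FPKM ran from 1.29 to 4.99 and yellow FPKM from 35.7 to 143, so that both levels differed by several fold.

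A contig of 1863 bases carried another pair among these loci. One had 50.4 FPKM in yellow and 1.85 FPKM in green, and the other had 91.6 FPKM in yellow and 5.46 FPKM in green. The longest contig of the 10, at 3572 bases, held a locus with 79.5 FPKM in yellow and 4.23 FPKM in green. The locus on a 1760-base contig had 47.8 FPKM in yellow and 2.24 FPKM in green. The locus on a contig of 1315 bases stood apart by its green level, with 239 FPKM in yellow and 14.9 FPKM in green. It was the only one of the 10 loci with the highest ratio to exceed 10 FPKM in green.

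The loci that were most abundant in yellow were different ones, since 0 of the 10 with the most yellow FPKM were among the 10 with the highest ratio. The most abundant, on a 1102-base contig, had 1676 FPKM in yellow and 228 FPKM in green, and ranked 13 of 6251 in yellow and 110 in green. Next came a locus on a 1633-base contig, with 1183 FPKM in yellow and 195 FPKM in green. Close to it was a locus on a 1854-base contig, with 1154 FPKM in yellow and 168 FPKM in green. These 3 loci were the ones above 1000 FPKM in yellow, and each was 6.03-fold to 7.33-fold higher there on the FPKM + 1 scale.

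The fourth lay on a 1054-base contig, with 998 FPKM in yellow and 216 FPKM in green. The fifth, on a 1507-base contig, had 722 FPKM in yellow and 199 FPKM in green. The sixth, on a 2768-base contig, had 525 FPKM in yellow and 66.8 FPKM in green. The seventh, on a 1847-base contig, had the highest ratio of these 10, 10.01-fold, with 499.9 FPKM in yellow and 49.03 FPKM in green. The last 3 of the 10 lay on contigs of 1493, 1021 and 1163 bases, with 464, 450.4 and 405 FPKM in yellow and 105, 134 and 126 FPKM in green. Of the 10 loci with the most yellow FPKM, 8 were also among the 10 raised loci with the most green FPKM.

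The sum over the raised loci rested on few of them. The 10 most abundant held 43.9% of the summed yellow FPKM of the 183, and the 10 with the most green FPKM held 43.4% of the summed green FPKM. FPKM is a value per length, so these are not shares of fragments.

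**Figure D2:**
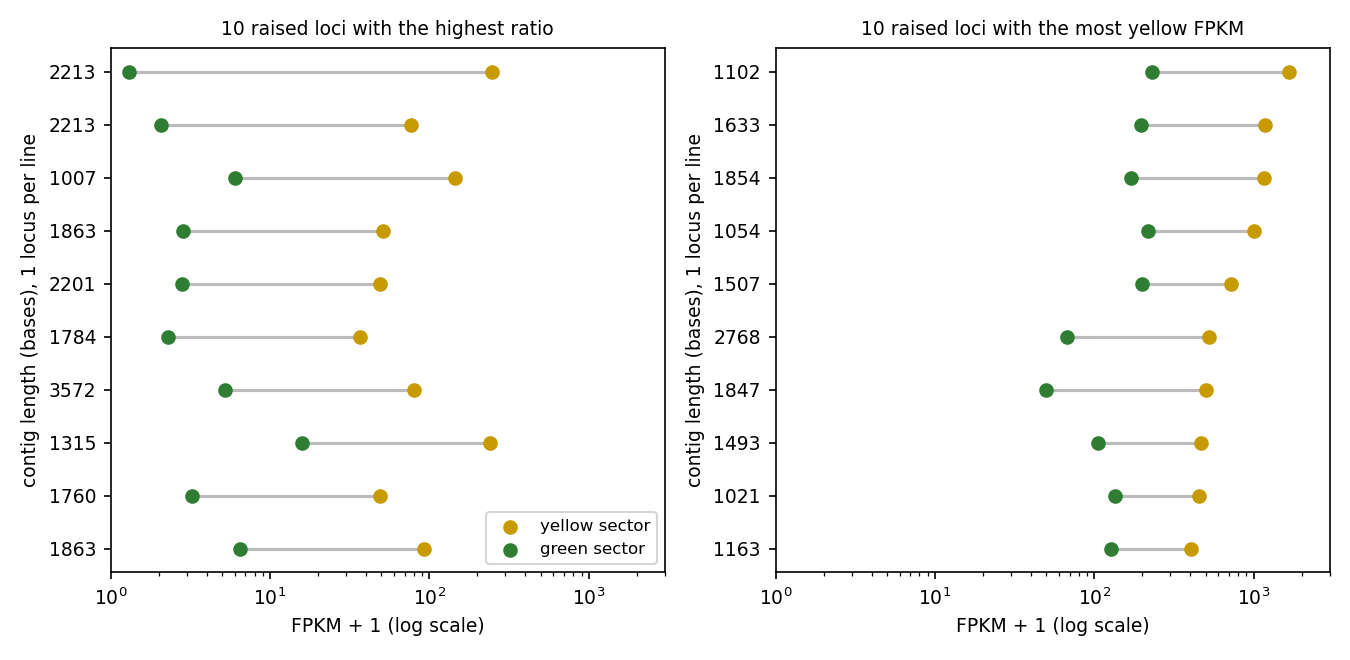
Yellow and green FPKM + 1, on a log axis, for the 10 raised loci with the highest ratio (left) and the 10 with the most yellow FPKM (right); each line is 1 locus, named by the length of its contig in bases. On the left 9 of the 10 loci have less than 10 FPKM in green, and on the right all 10 have more than 49 FPKM in green.

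At the limits of the rule the values ran on without a gap. The 3 raised loci with the smallest ratio had 53.6, 30.8 and 199.9 FPKM in yellow and 17.2, 9.56 and 65.6 FPKM in green, with log2 ratios of 1.587, 1.592 and 1.593. The 3 loci just under the ratio limit had 13.3, 37.2 and 28.2 FPKM in yellow and 3.77, 11.8 and 8.77 FPKM in green, with log2 ratios of 1.584, 1.583 and 1.581. Just under the FPKM limit, a 1856-base contig held a locus with 9.97 FPKM in yellow and 1.01 FPKM in green. Just under the length limit, a 995-base contig held a locus with 13.6 FPKM in yellow and 1.88 FPKM in green. On contigs of at least 1000 bases, 123 further loci reached the ratio but not 10 FPKM, and on shorter contigs 420 loci reached both the ratio and 10 FPKM. A further 37 loci within the length and FPKM limits had a plain ratio of at least 3 and fell short on the FPKM + 1 scale.

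The opposite difference, with the same limits, was found for 107 loci (1.71% of the 6251). These lowered loci had a median of 6.63 FPKM in yellow and 29.0 FPKM in green. Their FPKM summed to 2670 in yellow and 11633 in green. The larger of the sector values therefore had a median of similar size for both sets, 34.0 FPKM in yellow for the raised and 29.0 FPKM in green for the lowered loci. Raised loci were 63.1% of the 290 loci past 3-fold. At 2-fold 480 loci (7.68%) were raised and 344 (5.5%) lowered, at 5-fold 68 (1.09%) and 22 (0.352%), and at 8-fold 24 (0.384%) and 9 (0.144%). At 16-fold 6 (0.096%) were raised and 3 (0.048%) lowered.

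**Figure D3:**
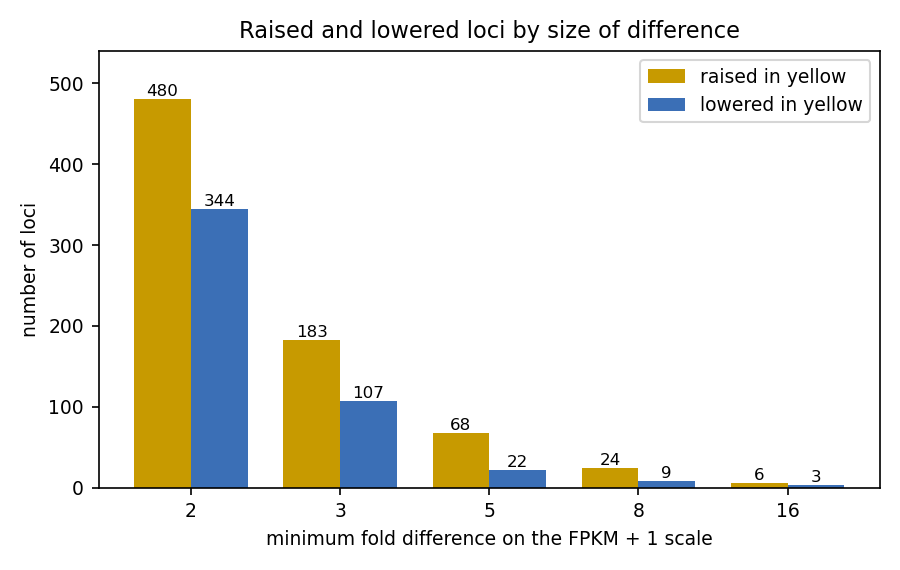
Number of loci raised and lowered in yellow at a minimum of 2-fold, 3-fold, 5-fold, 8-fold and 16-fold on the FPKM + 1 scale, among 6251 loci; the bars start at 0. More loci are raised than lowered at each minimum at the deposited scaling, from 480 against 344 at 2-fold to 6 against 3 at 16-fold.

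The split between raised and lowered depended on how the sectors were scaled. The FPKM totals stood at 1.18 to 1 for yellow over green once the table's most abundant locus was removed. With yellow FPKM divided by 1.18, 109 loci were raised and 160 lowered, so that 40.5% of those past 3-fold were raised. The median log2 ratio of all loci with at least 1 FPKM was then -0.20, against 0.01 at the deposited scaling. Of the 183 loci, 109 still reached 3-fold after that division. None of the 183 could change direction under it, because each had been chosen at 3-fold or more. Other scalings kept more raised than lowered loci. Centred on the median locus, 181 were raised and 111 lowered, so that 62% of those past 3-fold were raised. With the ratio of totals without the 100 most abundant loci, 166 were raised and 118 lowered (58.5% raised).

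Sorted by the larger FPKM, which for a raised locus is its yellow value and so part of the rule, the shares were as follows. Where the larger FPKM was at least 10 and below 20, 59 of 2863 loci (2.06%) were raised and 33 (1.15%) lowered. Between 20 and 50 FPKM, 54 of 2228 (2.42%) were raised and 32 (1.44%) lowered. Between 50 and 100 FPKM the shares were close, with 28 of 713 (3.93%) raised and 26 (3.65%) lowered. Between 100 and 500 FPKM, 36 of 391 (9.21%) were raised and 12 (3.07%) lowered, and from 500 FPKM on 6 of 56 (10.7%) were raised and 4 (7.14%) lowered. Sorted by green FPKM the order was another. Below 10 FPKM in green a locus met the limits only through yellow, and 10.4% of the 740 loci from 3 to below 10 FPKM were raised and 0 lowered. From 30 to below 100 FPKM in green, 20 of 1426 (1.4%) were raised and 37 (2.59%) lowered. At 10 FPKM or more in green 64 of the 183 remained, of 5468 loci (1.17%).

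The contigs of the raised loci had a median length of 1786 bases and reached from 1006 to 8731 bases. The median was 1744 bases for the lowered loci and 1996 bases for the 5961 loci within 3-fold. Of loci on contigs of 1000 to below 1500 bases 62 of 1622 (3.82%) were raised, and on contigs of at least 3000 bases 25 of 1191 (2.1%) were. The shares lowered were 2.34% and 1.18% in the same classes, so both sets were more frequent on the shorter contigs. The locus on the longest contig, of 8731 bases, had 27.4 FPKM in yellow and 6.02 FPKM in green. The next contigs had 5157 bases, with 30.9 FPKM in yellow and 8.46 FPKM in green, and 4573 bases, with 2 raised loci that are given below with the pairs.

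The contig names hold a transcript count and a confidence value, which are measures of the assembly and were not used by the rule. The median transcript count was 21 for the raised loci, 21 for the lowered and 24 for those within 3-fold. The median confidence was 0.603, 0.602 and 0.606 in the same order. A transcript count of 1 was found for 2 of the raised loci, among them the most abundant one.

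The number of the contig in the assembly differed more between the sets. Its median was 6049 for the raised loci, 2603 for the lowered and 3755 for those within 3-fold. Of loci on contigs numbered up to 2000, 22 of 1751 (1.26%) were raised and 41 (2.34%) lowered. On contigs 4001 to 6000, 34 of 1272 (2.67%) were raised and 15 (1.18%) lowered. On contigs 8001 to 10000, 27 of 514 (5.25%) were raised and 5 (0.973%) lowered. On contigs 10001 to 12000, 30 of 164 (18.3%) were raised and 1 (0.61%) lowered, and on contigs 12001 to 14000, 9 of 19 (47.4%) were raised and 0 lowered. In these classes 85 of the 164 and 14 of the 19 met the FPKM limit only through yellow and could not be lowered by the rule. Above contig 14000 the shares were 7.14% raised and 8.93% lowered of 56 loci.

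Median green FPKM fell with contig number up to 14000, from 28.7 on contigs up to 2000 to 12.8 on contigs 8001 to 10000 and 4.29 on contigs 12001 to 14000. Median yellow FPKM was 27.1, 13.3 and 11.9 in the same classes, and median length was 2189, 1720 and 1389 bases. Above contig 14000 the order broke, with medians of 24.3 FPKM in green, 23.5 FPKM in yellow and 1226 bases over 56 loci. The FPKM limit acted unequally along the contig numbers. On contigs 12001 to 14000, 14 of the 19 loci were below 10 FPKM in green and had met the limit only through yellow, and all 9 raised loci were among the 14. On contigs up to 2000 this held for 90 of 1751 loci and for 7 of the 22 raised. Such a locus could not be lowered by the rule, which limits what the few lowered loci on contigs 10001 to 14000 can show. Among loci below 10 FPKM in green, 7 of 90 were raised on contigs up to 2000 and 16 of 155 in the class from 6001. The counts were 24 of 130 on contigs 8001 to 10000, 29 of 85 in the class from 10001, and 9 of 14 on contigs 12001 to 14000. Above contig 14000, 3 of 10 were raised. The share raised among these loci was thus higher on contigs 8001 to 14000 than on lower numbers, but it is partly fixed by the rule. A locus that met the limit through yellow and was low enough in green was raised whatever its yellow value. Of the 43 loci below 3 FPKM in green that met the limits, 42 were raised. The share in a class therefore depends on how low its green values were. How far this sets the trend was not tested, and nothing is read from it. Among loci with at least 10 FPKM in green, which met the limit whatever their yellow value, the share raised did not climb with contig number. There 37 of 3060 loci (1.21%) were raised and 71 (2.32%) lowered on contigs up to 4000, 22 of 1894 (1.16%) and 25 (1.32%) on contigs 4001 to 8000, and 4 of 468 (0.855%) and 6 (1.28%) on contigs 8001 to 14000. Above contig 14000, 1 of 46 loci (2.17%) was raised and 5 (10.9%) were lowered.

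**Figure D4:**
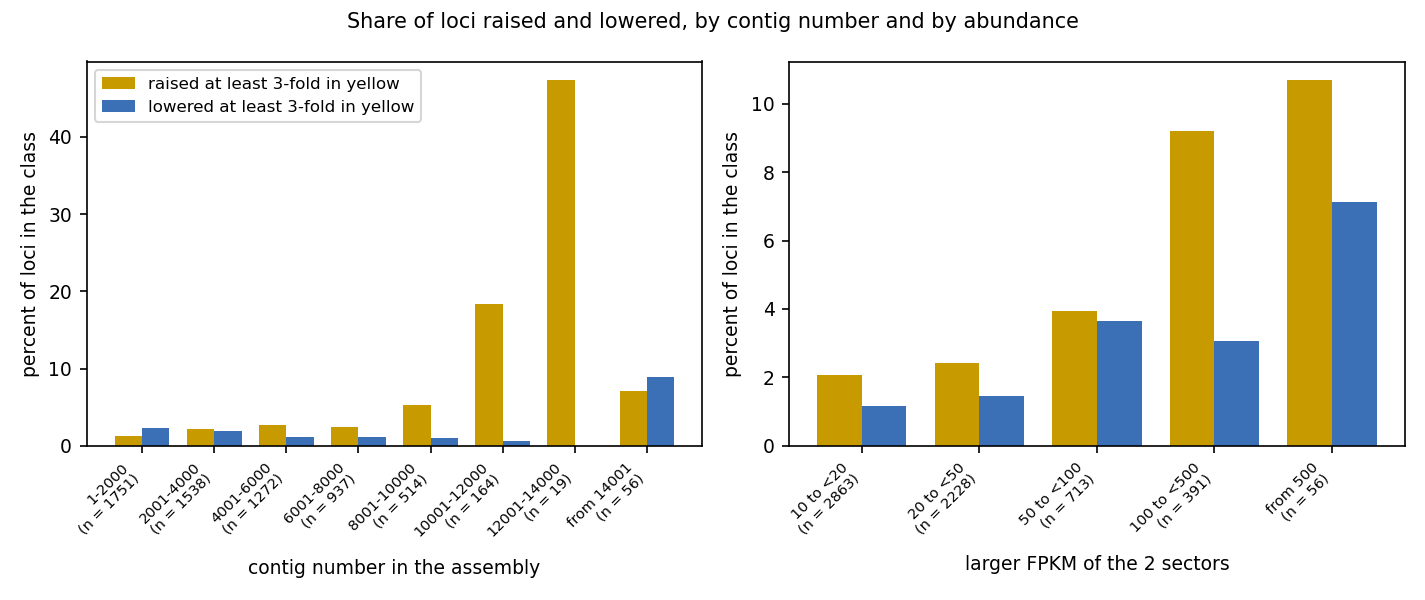
Percent of loci that were raised or lowered at least 3-fold in yellow, by contig number (left) and by the larger FPKM of the sectors (right), with the number of loci in each class below it; the bars start at 0 and the panels have different scales. The share raised is 1.26% on contigs up to 2000 and 47.4% on contigs 12001 to 14000, a class of 19 loci, where 14 loci met the FPKM limit only through yellow, and it is 2.06% at 10 to below 20 FPKM and 10.7% from 500 FPKM on.

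Some loci shared a contig with a raised locus, and their values come from the same libraries. Of the 172 contigs, 130 carried a single locus and 42 carried 2. On 11 of the 42 contigs both loci were raised, which accounts for 22 of the 183. In these 11 pairs the log2 ratios of the partners were 0.06 to 2.35 apart, with a median of 0.25. Both partners had passed the same ratio limit, so small gaps are partly built in. The widest gaps were 2.35 on the contig of 2213 bases and 1.08 on the contig of 2201 bases. On the contig of 4573 bases the pair had 264 and 185 FPKM in yellow and 41.6 and 31.0 FPKM in green. On a contig of 2602 bases the pair had 103 and 102 FPKM in yellow and 13.6 and 16.03 FPKM in green. On a contig of 1416 bases the pair had 47.7 and 40.9 FPKM in yellow and 6.90 and 6.12 FPKM in green. In these 3 pairs the partners had close levels and close ratios.

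On the other 31 contigs the second locus was not itself among the raised ones. Of these 31 loci, 20 (64.5%) were at least 2-fold higher in yellow. The comparison set was 2848 loci with at least 1 FPKM in a sector, on contigs of at least 1000 bases. These contigs held at least 2 loci and no raised one, and 4.53% of the 2848 were at least 2-fold higher. Leaving out contigs with a raised locus lowers that share by construction. Over the 6251 loci within both limits, raised ones included, 7.68% were at least 2-fold higher. The 20 were made up of 6 that reached the ratio but stayed below 10 FPKM and 14 between 2-fold and 3-fold. The remaining 11 lay within 2-fold, 4 of them with less FPKM in yellow than in green, and 0 were at least 2-fold lower. The median log2 ratio of the 31 was 1.30, from -0.87 to 2.90. Loci of 1 contig may share fragments or belong to 1 gene, so that this is not an independent measurement.

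Where the partners differed, the second locus was in some cases the more abundant one. On a contig of 4543 bases, the raised locus had 67.6 FPKM in yellow and 18.6 FPKM in green, and its partner had 204 FPKM in yellow and 374 FPKM in green. On a contig of 2175 bases, the raised locus had 12.8 FPKM in yellow and 3.44 FPKM in green, and its partner had 39.8 FPKM in yellow and 62.1 FPKM in green. On a contig of 1991 bases, the raised locus had 20.4 FPKM in yellow and 4.04 FPKM in green, and its partner had 34.9 FPKM in yellow and 43.4 FPKM in green. On these 3 contigs the loci differed in opposite directions between the sectors, and the raised locus had the lower FPKM in both. On another contig, of 1924 bases, the raised locus was the more abundant one, with 30.5 FPKM in yellow and 5.98 FPKM in green, and its partner had 2.17 FPKM in yellow and 2.31 FPKM in green. On a contig of 1566 bases, by contrast, the raised locus had 17.9 FPKM in yellow and 0.899 FPKM in green, and its partner was near 1 FPKM in both, with 1.38 FPKM in yellow and 1.01 FPKM in green.

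**Figure D5:**
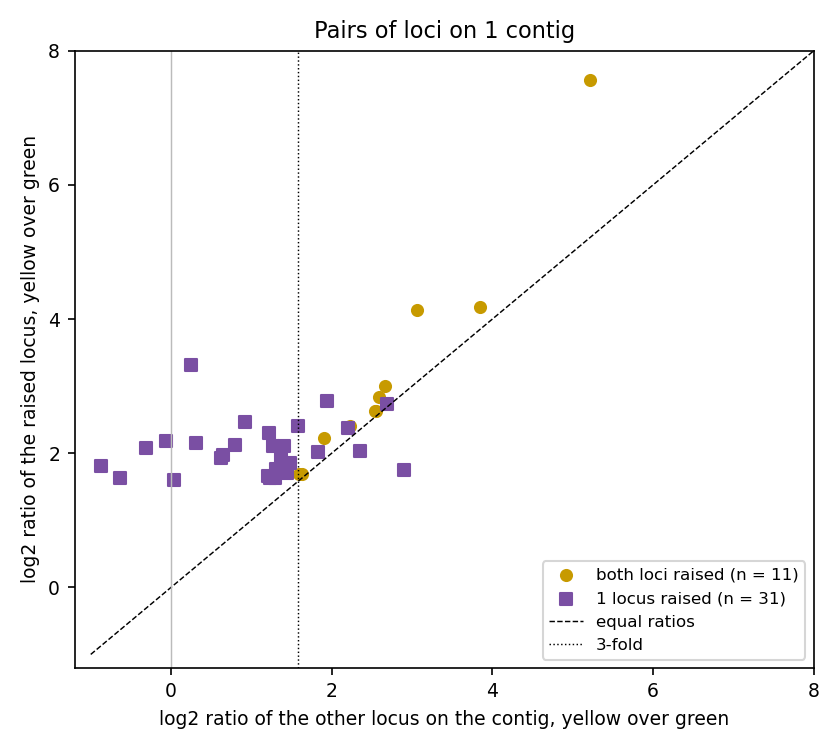
Log2 ratio of yellow to green, on the FPKM + 1 scale, of the raised locus against that of the other locus on the same contig, for 42 contigs; where both loci are raised, the one with the higher ratio is on the vertical axis. The 11 pairs with both loci raised lie near the line of equal ratios except the one on the contig of 2213 bases and the one on the contig of 2201 bases, and 4 of the other 31 loci have a ratio below 0.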

How the data were processed

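The members and the settings were chosen with earlier results of these data known. The deposited table holds FPKM, which the authors made with 1 library per sector, per the file headers. CASAVA 1.8.2, TopHat and Cufflinks are named per the submitters' processing notes. For the assembler, the options, the denominator and the other versions, the sources used here give nothing. Both columns of values were used, with 0 left out. Contig number, transcript count, confidence and length were read from the contig names, which stand in place of chromosomes. No fragment counts were used, so library depth is unknown and no interval is given for a value. From the deposited values the log2 ratio was computed with a pseudocount of 1 FPKM, which understates the change of low loci. Loci to be named were set by rank: the 10 highest ratios, the 10 highest yellow and 5 highest green FPKM, the 3 longest contigs, the 3 loci on either side of the ratio limit, and loci sharing a contig, of which examples were chosen after their values were seen. At most 2 identifiers are printed, since none is paired with a gene name. Classes of FPKM, green FPKM, length and contig number were chosen after the data were seen. Python 3.11.15, pandas 2.3.3, numpy 2.4.6, scipy 1.17.1 and matplotlib 3.10.9 were used.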

Additional observations from a re-analysis of the deposited data

How the results depend on the processing

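Alternatives gave 50 values, of which 28 kept within their limits, 21 moved beyond them and 1 reversed. The limits were 1.5-fold for the count and the 95% interval, exact binomial or by order statistics, for a share or median; these intervals treat loci as independent, hold no variation between leaves and serve only as limits. The share of raised among raised and lowered loci was chosen after seeing the data. With a pseudocount of 10 there were 65 raised loci (1.04% of those within the limits), and one of 0.1 gave 3.42%. Without a minimum FPKM 306 loci were raised, and with a minimum of 20 FPKM 3.66%. Contigs of at least 500 bases gave 304 loci (4.12%), and of at least 2000 bases 69 (2.24%). A 2-fold threshold gave 480 (7.68%) and a 4-fold threshold 99 (1.584%). These settings ask for more or less by construction. Dividing yellow FPKM by 1.18 left 109 loci (1.84%), all among the 183, and reversed the share of raised among loci past 3-fold to 40.5%. With the ratio of totals without the 100 most abundant loci, 166 of the 183 loci were kept. Leaving out contigs numbered 13000 to 14000 removed 2 of the 183, and counting each contig once gave 172. No paired analysis was possible because each sector has 1 library, which also meant that none could be left out. The unknown depth limits the ratios of the loci lowest in green most.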
